A study of Homo sapiens with 6 samples.

Results

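The genes described here are 10 readouts of the ERK pathway: the dual-specificity phosphatases DUSP4, DUSP5 and DUSP6, the Sprouty genes SPRY2 and SPRY4, the SPRED genes SPRED1 and SPRED2, the transcription factors ETV4 and ETV5, and PHLDA1. They were picked by symbol, as a list of known ERK output and feedback genes, and by no rule on their values. Earlier results of these data were known when they were chosen. All 10 were found among the 18768 genes to which the count table could be assigned, and all 10 passed the filter on low counts that left 13764 genes for testing. The cells were labelled HCT116, an established human colorectal cancer line. The siRNA-NC group received a control siRNA without that target and the si-AC010789.1 group one directed at the lncRNA AC010789.1, and RNA of 3 replicates per group was sequenced. Both groups were the same line grown in DMEM with fetal bovine serum and penicillin-streptomycin, and the labels give neither the siRNA dose nor the time after transfection. The labels do not say whether the replicates were separate cultures, while the study describes biological repeats and offers that cells of different generations were used for each. The p-values measure the spread between these libraries, whatever its source. The level of AC010789.1 itself was not analysed here.

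In the ERK pathway, receptors and RAS proteins activate the kinase RAF, RAF activates MEK, and MEK activates the ERK kinases. Active ERK switches on genes whose products then damp the pathway: DUSP phosphatases remove the activating phosphates from ERK, and Sprouty and SPRED proteins act further up, between receptor and RAF. Transcripts of such genes are widely read as a measure of ERK output.

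The 6 libraries held between 11277222 and 13443866 counts, and 3 counts corresponded to between 0.223 and 0.266 CPM, the unit that scales counts to the same total in each library. All CPM values below are sums over a gene's transcripts, scaled by library size with TMM factors. As a check on the label, the epithelial keratins KRT8 and KRT18 stood at 444 to 850 CPM and 351 to 535 CPM, and EPCAM at 3.10 to 5.59 CPM. No transcript of KRT19, CDX1, CDX2 or VIL1 was among those analysed, nor of the blood and endothelial markers CD3E, PTPRC and PECAM1. Of the other markers of blood, endothelium and fibroblasts, CD14 reached 1.13 CPM, VWF 0.300 CPM, DCN 2.43 CPM, COL3A1 3.99 CPM and COL1A1 48.0 CPM. Of the 7 epithelial markers fixed for this check, 3 could thus be read. EPCAM was low for a marker of colorectal epithelium, and COL1A1, a fibroblast collagen, was higher than EPCAM in every library, so these markers leave the label only partly checked. The groups overlapped for EPCAM, KRT8, KRT18 and COL1A1. COL3A1 was lower with si-AC010789.1 without overlap, at 2.56 to 3.99 CPM against 1.76 to 2.53 CPM (edgeR adjusted p = 0.310). Such separation occurred in 25.1% of all genes tested. The part of these marker levels in the results was not tested.

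None of the 10 ERK readouts differed between si-AC010789.1 and siRNA-NC in edgeR's quasi-likelihood test. The adjusted p-values lay between 0.298 for SPRY4 and 0.9996 for ETV4, 0 of 10 passed 0.05 even before adjustment, and DESeq2 also called 0 of 10. Across all genes tested, 130 of 13764 (0.944%) passed at an adjusted p-value of 0.05 and 2361 (17.2%) before adjustment. At an unadjusted p-value under 0.05 with an absolute log2 fold change over 1, the criteria in the study's methods, 107 genes (0.777%) passed and again 0 of the 10. In bulk RNA, fewer cells with a transcript and less of it per cell cannot be told apart.

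The data set limits on what could have gone unseen. The 95% confidence interval of the fold change lay within 2-fold in either direction for all 10 genes, against 83.94% of all genes tested, and within 1.5-fold for 7 of 10, against 61.87%. The 3 whose intervals reached past 1.5-fold were DUSP6, SPRY4 and PHLDA1. The median log2 fold change of the 10 was -0.03, beside -0.0006 over all genes, and the median absolute value was 0.09, beside 0.14. Values were higher with si-AC010789.1 for 4 genes and lower for 6. The spread between replicates was ordinary, with a median pooled SD of 0.146 on the log2 scale, beside 0.145 over all genes.

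**Figure D1:**
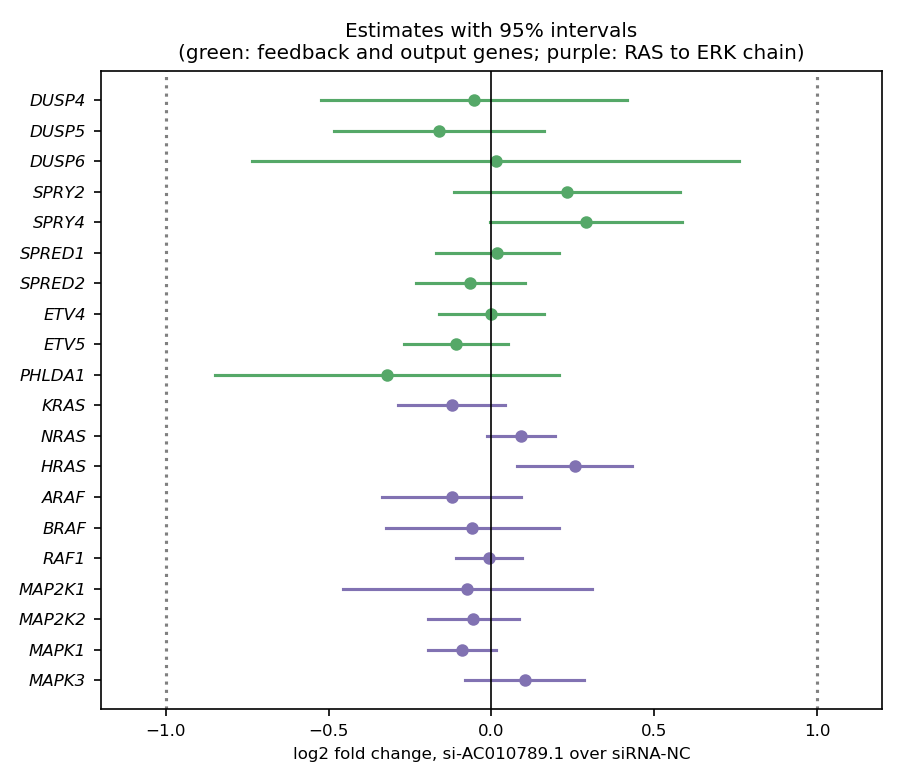
Log2 fold change of si-AC010789.1 over siRNA-NC (horizontal axis), with points at the edgeR estimate. Bars give the 95% confidence interval, n = 3 libraries per group. Green marks the 10 ERK readout genes and purple the 10 genes of the chain from RAS to ERK. Every green bar crosses 0, the green estimates run from -0.32 for PHLDA1 to 0.29 for SPRY4, and the longest bar belongs to DUSP6. Among the purple bars, that of HRAS lies above 0 (0.08 to 0.43).

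The phosphatases come first, since they act on ERK itself. DUSP4, an inducible phosphatase of the nucleus (GRCh38 chr8:29333064-29350668, minus strand), stood at 49.0, 58.8 and 33.6 CPM in siRNA-NC replicates 1, 2 and 3 and at 45.1, 42.8 and 48.3 CPM in si-AC010789.1 replicates 1, 2 and 3. The control libraries spread 1.75-fold and enclosed all 3 knockdown libraries, which spread 1.13-fold. Means were 47.1 ± 12.7 CPM (SD, n = 3) and 45.4 ± 2.78 CPM, and the log2 fold change was -0.05 (interval -0.52 to 0.42, edgeR adjusted p = 0.921).

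DUSP5, a nuclear phosphatase specific for ERK (chr10:110497838-110511544, plus strand), stood at 16.04, 19.0 and 18.4 CPM in siRNA-NC and at 13.5, 18.1 and 16.3 CPM in si-AC010789.1. The groups overlapped, with the lowest value in si-AC010789.1 replicate 1. For DUSP5 the log2 fold change was -0.16 (interval -0.48 to 0.16, edgeR adjusted p = 0.598).

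DUSP6, the cytoplasmic ERK phosphatase and a much used readout of ERK activity (chr12:89347232-89353271, minus strand), was the least abundant of the 10 by CPM. Its values were 9.04, 8.97 and 4.95 CPM in siRNA-NC and 7.25, 5.59 and 10.3 CPM in si-AC010789.1. Replicates of one group differed 1.83-fold and 1.84-fold, so the ranges of both groups nearly coincided. The log2 fold change was 0.01 with the widest interval of the 10, -0.74 to 0.76 (edgeR adjusted p = 0.987). Both DUSP4 and DUSP6 were lowest among the controls in siRNA-NC replicate 3, and without that library the log2 fold changes were -0.25 and -0.23, with edgeR adjusted p-values of 0.385 and 0.752.

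The Sprouty and SPRED genes act upstream of ERK. SPRY2, which curbs signalling from growth factor receptors to RAS (chr13:80335976-80340951, minus strand), stood at 9.22, 8.29 and 8.78 CPM in siRNA-NC and at 11.4, 11.02 and 8.50 CPM in si-AC010789.1. Replicates 1 and 2 of the knockdown lay above all controls and replicate 3 lay among them. This gave SPRY2 a log2 fold change of 0.23 (interval -0.12 to 0.58, edgeR adjusted p = 0.471).

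SPRY4, a relative of SPRY2 (chr5:142310427-142326455, minus strand), stood at 10.5, 9.88 and 12.7 CPM in siRNA-NC and at 13.8, 13.4 and 13.2 CPM in si-AC010789.1. All 3 knockdown libraries were above all 3 controls, by a small margin between 12.7 and 13.2 CPM. SDs were 1.48 and 0.304 CPM for controls and knockdown (n = 3), the log2 fold change was 0.29 (SE 0.123, interval -0.004 to 0.59) and the edgeR adjusted p was 0.298. The exact two-sided permutation test gave p = 0.1, the smallest that 3 against 3 allows.

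SPRED1, which brings the RAS inhibitor neurofibromin to the membrane (chr15:38252326-38357249, plus strand), varied little between libraries. It stood at 40.2, 44.0 and 44.8 CPM in siRNA-NC and at 41.7, 46.4 and 42.6 CPM in si-AC010789.1, with a log2 fold change of 0.02 (interval -0.17 to 0.21, edgeR adjusted p = 0.933). Its relative SPRED2 (chr2:65310851-65432637, minus strand) stood at 54.3, 59.0 and 61.0 CPM in siRNA-NC and at 55.4, 53.8 and 57.5 CPM in si-AC010789.1. The SPRED2 log2 fold change was -0.07 (interval -0.23 to 0.10, edgeR adjusted p = 0.690), and the groups of both genes overlapped.

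ETV4 and ETV5 belong to the PEA3 group of ETS transcription factors, which carry ERK signals to further genes. ETV4 (chr17:43527844-43579620, minus strand) had the highest CPM of the 10, at 66.7, 67.4 and 75.1 in siRNA-NC and at 69.6, 68.5 and 71.0 in si-AC010789.1. Both groups had a mean of 69.7 CPM, with SDs of 4.67 and 1.24 (n = 3), and the log2 fold change was -0.0001 (interval -0.16 to 0.16, edgeR adjusted p = 0.9996). ETV4 shares exon positions with DHX8 on the other strand, which stood at 124 to 141 CPM, and whether the counting used strand is not given in the sources used here.

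ETV5 (chr3:186046308-186110318, minus strand) stood at 50.2, 46.4 and 48.2 CPM in siRNA-NC and at 43.1, 45.5 and 45.6 CPM in si-AC010789.1. All 3 knockdown libraries lay below all 3 controls, with 45.6 and 46.4 CPM as the nearest values. For ETV5 the log2 fold change was -0.11 (SE 0.0665, interval -0.27 to 0.05, edgeR adjusted p = 0.457), and the exact two-sided permutation test gave p = 0.1.

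PHLDA1 encodes a protein with a pleckstrin homology-like domain, and its transcript is commonly read with the DUSP and Sprouty genes (chr12:76025447-76033932, minus strand). It stood at 35.4, 44.4 and 46.2 CPM in siRNA-NC and at 37.6, 40.3 and 23.1 CPM in si-AC010789.1. Replicate 3 of the knockdown lay apart from the other 5 libraries, which held between 35.4 and 46.2 CPM. PHLDA1 had a log2 fold change of -0.32 (SE 0.221, interval -0.85 to 0.21, edgeR adjusted p = 0.511), the largest in size of the 10, which was -0.11 without that library.

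**Figure D2:**
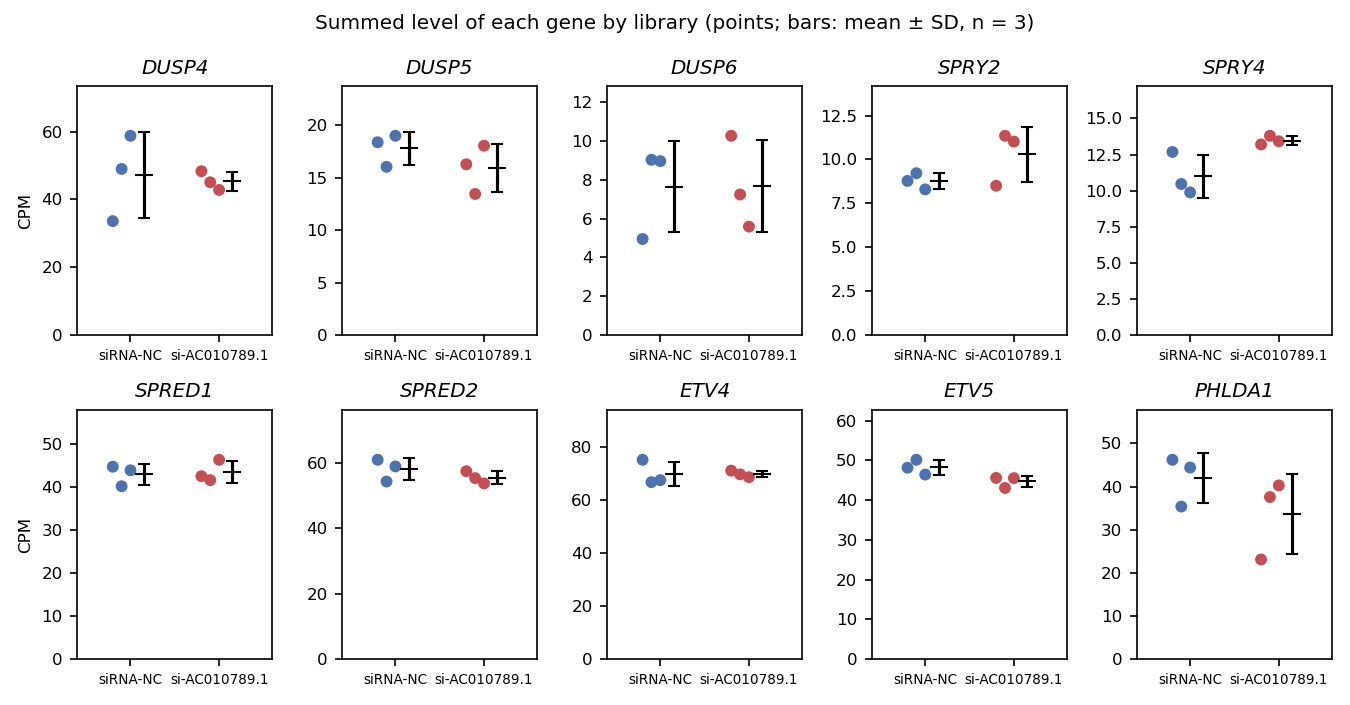
Summed level of each of the 10 ERK readout genes in CPM (vertical axis, starting at 0) in the 3 siRNA-NC and 3 si-AC010789.1 libraries, with points for libraries and bars for mean ± SD, n = 3. The groups overlap for 8 genes, while the si-AC010789.1 points lie above the controls for SPRY4 and below them for ETV5.

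Complete separation of the groups, as for SPRY4 and ETV5, occurred in 2 of 10 genes, 1 in each direction. Over all genes tested it occurred in 3456 of 13764 (25.1%), so the share among the 10 was near the background.

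Levels of different genes were compared per length, as counts over transcript length scaled to the same total in each library (TPM) and summed per gene. The mean over the 6 libraries ran from 80.2 TPM for ETV4 through 37.4 for ETV5, 35.5 for SPRED2, 16.3 for DUSP4, 12.9 for DUSP5, 11.8 for both PHLDA1 and SPRED1, 8.12 for SPRY2 and 6.63 for SPRY4 to 4.63 for DUSP6. The highest mean was 17.3-fold the lowest. ETV4 stood clear of ETV5, SPRED2 of DUSP4 and SPRED1 of SPRY2 in every library, whereas the other 6 of 9 pairs of neighbours had overlapping ranges. On this scale the groups of SPRY4 overlapped, at 6.81, 4.10 and 7.77 TPM among controls and 5.91, 8.78 and 6.40 TPM in the knockdown. Those of ETV5 did too, at 36.7, 39.5 and 37.9 TPM against 32.03, 43.2 and 35.1 TPM. The separation of both genes therefore held for their counts and not on this scale. These levels rest on how counts were divided among transcripts of different length, and for SPRY4 that division varied between libraries.

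**Figure D3:**
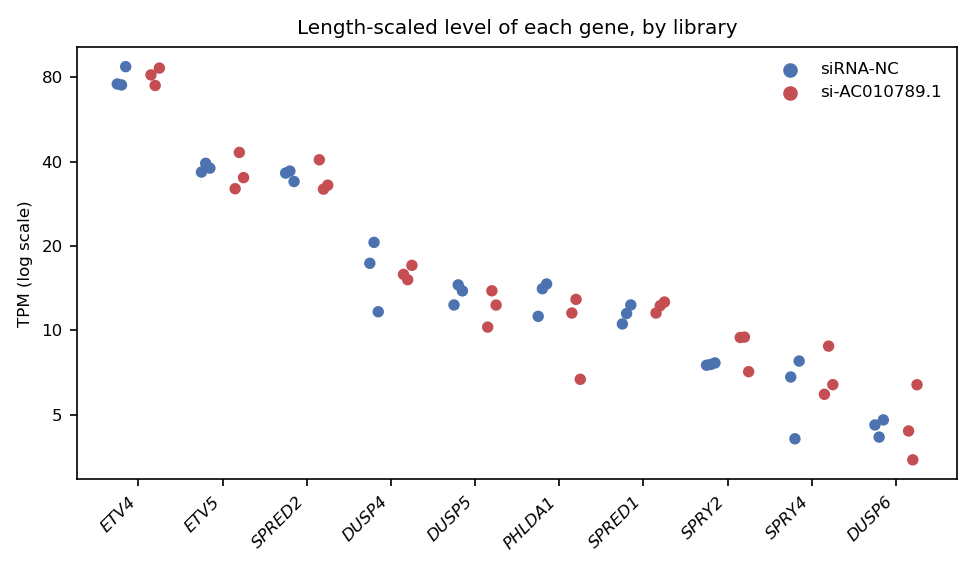
Level per length in TPM (log axis) of the 10 ERK readout genes in each of the 6 libraries, ordered by the mean over all libraries. ETV4 lies highest at 74.8 to 87.3 TPM and DUSP6 lowest at 3.45 to 6.39 TPM, and the middle genes from DUSP4 to SPRED1 overlap.

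Steady gene sums did not always hold steady transcripts. The 10 genes had 46 transcripts in the count table, of which 29 could be tested. In edgeR's quasi-likelihood test over 44297 transcripts, 0 of the 29 passed (adjusted p-values 0.818 to 0.9995) and 1 passed before adjustment, while 6 transcripts (0.0135%) passed over the whole table. The fitted biological coefficient of variation, the spread between replicates beyond counting error, was 0.698 for transcripts and 0.170 for genes. The 1 transcript was ETV4-203, which also met the study's criteria, as did 1549 (3.5%) of all transcripts tested.

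ETV4-203 was counted 454, 566 and 19 times in the siRNA-NC libraries and 26, 9 and 35 times in the si-AC010789.1 libraries. Controls 1 and 2 were high, and control 3 fell in the range of the knockdown libraries. The log2 fold change was -3.86 (SE 1.30, edgeR adjusted p = 0.818). It met the study's criteria without siRNA-NC replicate 3 (-4.42), but not when any other library was left out (-4.42 to -3.41 over all 6). ETV4-203 also met them with DESeq2 (adjusted p = 0.0616), RLE or upper-quartile factors, no filter or a mean of at least 1 CPM. With the replicate block it did not. ETV4-202, the transcript with the most counts over the 6 libraries, was counted 28, 30 and 571 times in the controls and 444, 531 and 468 times in the knockdown, which is the opposite pattern (log2 fold change 1.31, edgeR adjusted p = 0.983). Added together, the pair reached 482, 596 and 590 counts with siRNA-NC and 470, 540 and 503 counts with si-AC010789.1, a spread of 1.12-fold in CPM. ETV4-203 took 94.2%, 95.0% and 3.22% of the pair in the controls and 5.53%, 1.67% and 6.96% in the knockdown.

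The annotated transcripts ETV4-202 (2182 bases) and ETV4-203 (2147 bases) share 2068 bases, and all 1335 coding bases of ETV4-203 lie within the 1452 of ETV4-202. Reads from the shared bases carry no information on which of the pair they came from, and how such reads were divided is not given in the sources used here. What separates the coding sequences is the start codon, so the first 30 coding bases of each are shown, in GRCh38 on the minus strand of chromosome 17 from GENCODE v29, with the start codon in capitals. The coding sequence of ETV4-202 begins at position 43545617 and that of ETV4-203 at 43545310.
ETV4-202: ATGgagcggaggatgaaagccggatacttg
ETV4-203: ATGgacccgggctccctgccgcccctcgac

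**Figure D4:**
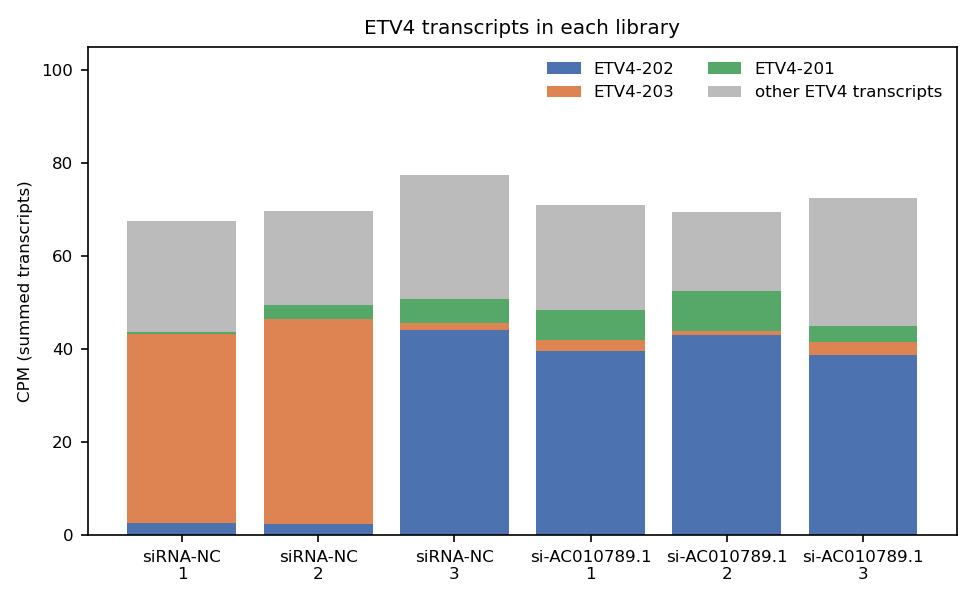
Stacked CPM of ETV4 transcripts in each library (vertical axis from 0, scaled over transcripts, so that totals differ slightly from the gene sums). ETV4-203 fills most of siRNA-NC replicates 1 and 2, ETV4-202 fills most of siRNA-NC replicate 3 and of the 3 si-AC010789.1 libraries, and the total height stays nearly level.

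Similar exchanges between libraries of one group were seen in other genes whose transcripts overlap. SPRY4-202 took 55.6%, 5.34% and 50.6% of the counts of SPRY4-201 and SPRY4-202 among controls and 4.46%, 53.6% and 17.9% in the knockdown. SPRY2-202 took 48.1%, 96.4% and 83.8% of its pair with SPRY2-201 among controls and 59.2%, 69.6% and 61.0% in the knockdown. Neither followed the groups.

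In PHLDA1 the low library was low in the counts assigned to 1 transcript. PHLDA1-202 was counted 312, 463 and 513 times in controls and 299, 411 and 145 times in knockdown libraries, whereas PHLDA1-201 had 85, 125 and 100 against 127, 92 and 138. The low gene sum in si-AC010789.1 replicate 3 lay in the counts assigned to PHLDA1-202, at 50.9% of the gene's counts there and 69.5% to 83.3% in the other 5 libraries. All 5741 bases of PHLDA1-202 lie within PHLDA1-201, and how shared reads were divided is not given. The counts therefore do not settle which of the transcripts was low.

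DUSP6-201 took 72.7% of the gene's counts in siRNA-NC replicate 3 and 86.6% to 98.3% elsewhere. Another 2 shorter transcripts took 12.1% and 15.2% in that library. As short transcripts weigh more per length, siRNA-NC replicate 3, the lowest control by CPM, was the highest control by TPM, at 4.79 against 4.60 and 4.16.

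The remaining genes were carried by 1 transcript in every library, DUSP4-201 at 98.8% to 99.9%, DUSP5-201 at 99.4% to 100%, SPRED1-201 at 96.6% to 99.1%, SPRED2-201 at 91.3% to 96.8% and ETV5-201 at 78.4% to 87.6%. The exact two-sided permutation test on the share of the leading transcript gave p-values from 0.1 for DUSP4, where all shares lay within the narrow range above, to 1.0.

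**Figure D5:**
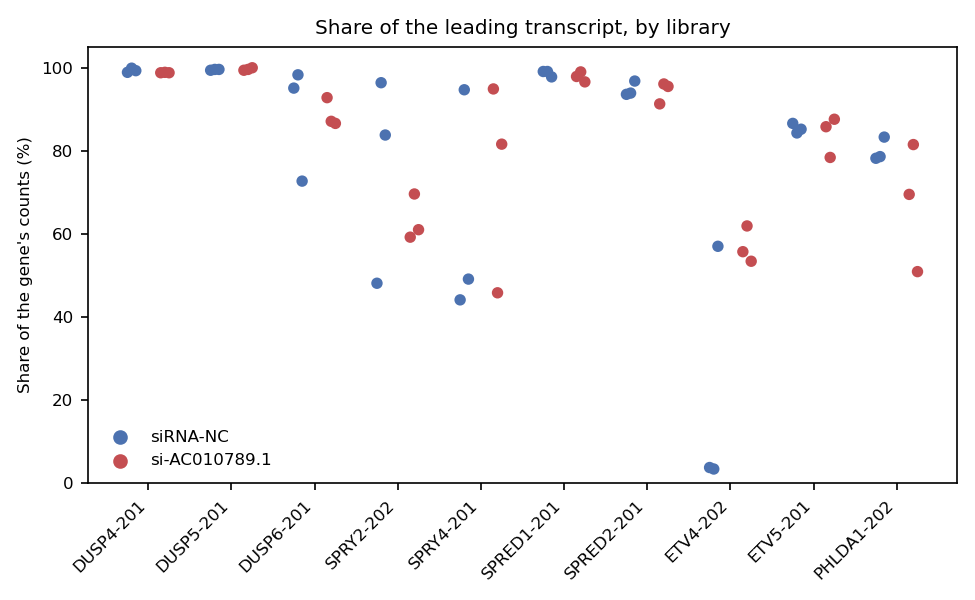
Share of each gene's counts on its leading transcript (percent, vertical axis from 0) in the 6 libraries for the 10 ERK readout genes. DUSP4, DUSP5, SPRED1 and SPRED2 stay above 91.3% in every library, while ETV4-202 ranges from 3.36% to 61.9%, SPRY4-201 from 44.1% to 94.9% and SPRY2-202 from 48.1% to 96.4%.

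The study asked whether AC010789.1 binds the miRNA miR-432-3p, so the 3′ UTRs of the 10 genes were searched for its seed sites. The mature miR-432-3p (RefSeq, GRCh38.p14, chr14:100884544-100884564, plus strand) is shown with its seed, bases 2 to 8, in capitals.
miR-432-3p: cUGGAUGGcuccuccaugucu
Sites of 7 bases were searched on the transcript strand, CCATCCA opposite the seed and CATCCAA opposite bases 2 to 7 with an A after them. None of the 10 genes held either in an annotated 3′ UTR, where 2366 of 12317 genes tested (19.2%) did. The longest 3′ UTRs searched ran from 675 bases in ETV4 to 5585 bases in SPRED1.

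Promoter windows from 250 bases before to 50 after the transcript start were held by RefSeq for 6 of the 10 genes, in 9 windows. The ETS motif CCGGAAG, searched on both strands, was in 0 of the 9 and in 10.26% of 35116 windows of the same length. The AP-1 motif, TGACTCA on either strand, was in 1 of the 9, that of SPRED2, and in 4.95% of all.

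The rest of the pathway was read from 7 lists of 65 genes, of which 62 were tested. CCND1, which encodes cyclin D1 and drives entry into S phase, was the one gene called. It stood at 177, 190 and 203 CPM in siRNA-NC and at 242, 262 and 254 CPM in si-AC010789.1, above the controls in all 3 libraries. Its log2 fold change was 0.41 (SE 0.0634, edgeR adjusted p = 0.0473), and leaving out any 1 of the 6 libraries ended the call, with adjusted p-values from 0.0771 to 0.157. The call was also lost with the replicate block (edgeR adjusted p = 0.147), without the filter on low counts (0.0872) and with protein-coding transcripts alone (0.0813). It held with DESeq2 (adjusted p = 0.000108). In edgeR it held with RLE factors (adjusted p = 0.0462), upper-quartile factors (0.0478) and a mean of at least 1 CPM (0.0474). With 1 library left out the log2 fold change of CCND1 ran from 0.37 to 0.46. Across the 62 genes 16 passed before adjustment, beside 17.2% of all genes, the groups were separate in 20, with 10 higher and 10 lower, beside 25.1% of all genes, and the median log2 fold change was -0.05.

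In the chain from RAS to ERK, 0 of 10 genes were called and 1 passed before adjustment, where 0.944% and 17.2% of all genes did. This was HRAS, a RAS GTPase, at 25.9, 23.9 and 25.9 CPM with siRNA-NC against 29.9, 29.96 and 30.5 CPM with si-AC010789.1 (log2 fold change 0.26, SE 0.0735, edgeR adjusted p = 0.163). NRAS was at 170 to 182 CPM against 185 to 189 CPM (log2 fold change 0.09, edgeR adjusted p = 0.356), also without overlap. In the chain the groups were separate for 3 of 10 genes, 2 higher and 1 lower, beside 25.1% of all genes.

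The RAF kinases ARAF and BRAF had log2 fold changes of -0.12 and -0.06, and the MEK genes MAP2K1 and MAP2K2 of -0.07 and -0.06. MAPK3, which encodes an ERK kinase, had a log2 fold change of 0.10 with overlapping groups. All 10 intervals of the chain lay within 1.5-fold.

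Among 12 adapters, exchange factors and scaffolds, 0 were called and 5 passed before adjustment, beside the same 17.2% of all genes. FRS2, the adapter of FGF receptors, was the one gene of the 62 at the study's criteria. It stood at 29.4, 60.9 and 63.0 CPM in siRNA-NC and at 23.8, 19.7 and 21.4 CPM in si-AC010789.1, so that control 1 lay nearer to the knockdown than to the other controls. The log2 fold change was -1.24 (SE 0.287, edgeR adjusted p = 0.110), and the adjusted p was 0.0356 without control 1 and 0.000876 in DESeq2. Leaving out any other library gave adjusted p-values from 0.213 to 0.274, and the replicate block gave 0.237. PTPN11, the phosphatase SHP2 that promotes RAS activation, was at 316 to 343 CPM in siRNA-NC and 384 to 391 CPM in si-AC010789.1 (log2 fold change 0.22, edgeR adjusted p = 0.0824). PTPN11 passed with DESeq2 (adjusted p = 0.0133) and in none of the other 12 alternatives.

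The 6 RAS GTPase-activating proteins had 0 calls and 2 genes that passed before adjustment (17.2% of all genes), RASA2 and RASAL2, with log2 fold changes of -0.16 and -0.32 (edgeR adjusted p = 0.268 and 0.289). The 7 other dual-specificity phosphatases had 0 calls and 0 before adjustment. DUSP1 had a log2 fold change of -0.15, and DUSP16, a phosphatase of JNK and p38, stood at 126, 38.1 and 106 CPM in siRNA-NC and at 88.3, 22.8 and 28.9 CPM in si-AC010789.1, with groups that overlapped. Of the 4 other relatives, SPRED3 was under the filter, and 0 of 3 were called. ETV1, the third PEA3 factor, was at 46.2 to 55.8 CPM against 39.9 to 44.4 CPM (log2 fold change -0.23, edgeR adjusted p = 0.278), and SPRY3 had a log2 fold change of -0.17.

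Of 12 ERK substrates 0 were called and 6 passed before adjustment, 17.2% being the background. ELK4 and ELK1, ETS factors that ERK phosphorylates, had values in opposite directions and did not pass adjustment in the main fit. Among the 13 alternatives, ELK4 passed with DESeq2 (adjusted p = 0.000681) and with upper-quartile factors (edgeR adjusted p = 0.0493), and not in the other 11. ELK4 was at 117 to 127 CPM in siRNA-NC and 152 to 164 CPM in si-AC010789.1 (log2 fold change 0.35, edgeR adjusted p = 0.0519), and ELK1 at 55.5 to 56.7 CPM against 42.2 to 49.1 CPM (log2 fold change -0.31, edgeR adjusted p = 0.121). Of 14 further ERK-responsive genes, EPHA4 and EREG were under the filter, and CCND1 was the 1 of 12 called.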

How the data were processed

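RNA sequencing of HCT116 cells was analysed in 3 si-AC010789.1 and 3 siRNA-NC libraries, grouped by their labels. The authors deposited whole-number counts per Ensembl transcript and library, without normalization. The submitters' processing notes name CASAVA 1.8, TopHat2 2.0.6 and the builds GRCh38 and mm10, without a role for each. The counting program, its use of strand and its division of reads shared by transcripts are not given in the sources used here, and they bear on single transcripts more than on gene sums.

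Of 98886 transcripts, 83 were not matched to GENCODE v29 and were left out, and 99.907% to 99.941% of a library's counts were kept. Sums per gene were tested with edgeR 4.0.16 in R 4.3.3 (TMM factors, filterByExpr at its defaults of 10 counts and 15 in total, quasi-likelihood test, Benjamini-Hochberg adjustment over all genes tested), and transcripts likewise. CPM used TMM-scaled library sizes. The study's methods name Cuffdiff, which needs alignments and was not run. A floor of 3 counts, which covers counting error only, was given in CPM as a reference. Lower counts were kept in sums and shares. Exact permutation tests were enumerated in Python 3.11.15 with numpy 2.4.6, and figures were made with matplotlib 3.10.9. The fit was also run on simulated counts that had the same biological coefficient of variation for every gene, and likewise for transcripts. They held no exchange of counts between transcripts, so that run cannot vouch for the fit on these data.

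The genes, lists and tests were chosen with earlier results of these data known. The text names all 10 members, genes of the RAS to ERK chain (some of its 10 are not reported here singly), each other listed gene with an adjusted p-value under 0.05 and otherwise the 2 with the smallest p-value of each list, and for transcripts the leading one of each gene and those at the study's criteria. SPRY2-201, SPRY4-202 and PHLDA1-201 were named after their values were seen. The alternatives were DESeq2 1.42.0, RLE and upper-quartile factors, no filter, a mean of at least 1 CPM, the replicate number as a block, protein-coding transcripts only, each library left out, and lengths of the longest protein-coding transcript.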

Additional observations from a re-analysis of the deposited data

How the results depend on the processing

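For the 10 ERK readout genes 0 were called and 0 met the study's criteria under all 13 alternatives for genes, with a lowest adjusted p-value of 0.234, although DESeq2 gave no adjusted p-value for DUSP6. Of 130 log2 fold changes 14 changed sign. ETV4 took values of 0.0014 (DESeq2), 0.0019 (RLE factors and the replicate block), 0.0156 (upper-quartile factors), 0.0014 (mean of at least 1 CPM) and 0.0117 (protein-coding transcripts), and leaving out 1 library gave -0.0298 to 0.0551. With 1 library left out DUSP4 ran from -0.2498 to 0.1366, DUSP6 from -0.2536 to 0.2022 and SPRED1 from -0.027 to 0.049. With 1 library left out BRAF ran from -0.1629 to 0.0002 and MAP2K1 from -0.2141 to 0.0305, and with protein-coding transcripts MAP2K2 was 0.0927 and MAPK3 -0.0237.

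Over all genes, 130 calls became 519 with DESeq2, 69 without the filter, 56 with protein-coding transcripts, 0 with the replicate block and 12 to 37 with 1 library left out. Genes at the study's criteria were 332 without the filter and 149 to 169 with 1 library left out. The 1 pathway call outside the 10 genes became 5 with DESeq2 (PTPN11, FRS2, PEBP1, ELK4 and CCND1), 2 with upper-quartile factors, 0 without the filter, with the block or with protein-coding transcripts, and 0 to 1 with 1 library left out. Transcripts called, 6 in the main fit, were 676 with DESeq2, 0 without the filter or with the block and 0 to 6 with 1 library left out. Member transcripts at the study's criteria were 0 with the block and 0 to 2 with 1 library left out. The 2 appeared without siRNA-NC replicate 3, when ETV4-203 stood at -4.42 and ETV4-202 at 4.05 (edgeR adjusted p = 0.314 and 0.147). The cause was not tested, except that leaving out a library or the block leaves fewer degrees of freedom.

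The median log2 fold change of the 10 genes was -0.0116 with upper-quartile factors, -0.0096 with the replicate block and -0.0972 to 0.0041 with 1 library left out. For GTPase-activating proteins it was -0.0127 with upper-quartile factors, -0.0479 with protein-coding transcripts and -0.0454 to 0.0074 with 1 library left out, and for ERK substrates -0.1085 with protein-coding transcripts and -0.0126 to 0.0652. With 1 library left out it was -0.0602 to -0.0076 for the chain, -0.1955 to 0.014 for the other phosphatases and -0.0291 to 0.0072 for the other ERK-responsive genes. By the length of the longest protein-coding transcript, the siRNA-NC mean per length became 32.53 TPM for ETV5, 39.26 for SPRED2, 23.63 for DUSP4, 19.28 for DUSP5, 15.3 for SPRED1 and 8.967 for SPRY2, so that ETV5 and SPRED2, and PHLDA1 and SPRED1, exchanged places.

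The labels give both groups the numbers 1 to 3, but deviations of same-numbered libraries correlated at 0.11, 0.01 and 0.02, so the numbers were not taken as pairs. No member was called with the block. With 3 libraries a group, the intervals printed with each gene set the limit of detection.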

Other observations

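Both MYC and IER2, ERK-responsive genes named here after their values were seen, differed more between libraries of one group than any of the 10 readouts. MYC, a transcription factor of cell growth, stood at 169, 120 and 10.4 CPM in siRNA-NC, a 16.2-fold spread, and at 12.7, 14.3 and 166 CPM in si-AC010789.1, a 13.1-fold spread. Each group thus held both high and low libraries, and the log2 fold change was -0.63 (SE 1.24, edgeR adjusted p = 0.838). The immediate early gene IER2 stood at 71.0, 74.5 and 77.2 CPM in siRNA-NC and at 88.9, 21.0 and 13.9 CPM in si-AC010789.1. Knockdown replicate 1 lay above the controls, and replicates 2 and 3 lay below them. The log2 fold change was -0.85 (SE 0.648, edgeR adjusted p = 0.558). Without si-AC010789.1 replicate 1, the knockdown library above the controls, it was -2.09 (edgeR adjusted p = 0.0354). IER2 was called under no other setting.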
